A study of Mus musculus with 4 samples.

Results

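The genes described here form a module of mitosis and the G2/M phase of the cell cycle. They were named by symbol, and 41 of the 42 listed genes had values in a table of 12584 genes. Ccnb1, which encodes cyclin B1, is not analysed here. Their unique molecular identifiers (UMIs, one per captured molecule) were summed by deposited cell class and by library, with the class named TAM_cycling, a class of tumour-associated macrophages (TAMs), kept apart.

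The cells were CD45+ cells sorted from tumours of YUMM1.7-OVA RTT, a therapy-resistant mouse melanoma line with a Braf V600E allele, no Cdkn2a, and ovalbumin as a model antigen. The tumours grew in Rag2-/- mice, which make no T or B cells of their own. All mice received ovalbumin-specific OT-1 CD8+ T cells (adoptive cell transfer, ACT) on day 7, and tumours were taken on day 10, 72 h later. Each of the 4 groups was 1 library pooled from 3 tumours. In the CTRL group the cancer cells carried an mCherry control vector. In the IRF3/7 group they carried Irf3 and Irf7 under a viral promoter in a bulk-sorted line, so the forced factors were in the cancer cells and not in the immune cells counted here. The COX2i group carried the mCherry line and was treated with celecoxib, an inhibitor of the prostaglandin-producing enzyme COX2. The COX2i + 5-AZA group carried the mCherry line and received celecoxib and the DNA methyltransferase inhibitor 5-azacytidine.

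A cell that divides copies its DNA in S phase, prepares in G2 and separates the copies in mitosis (M). The mitotic kinase Cdk1, bound to A- and B-type cyclins, drives entry into mitosis. Aurora and polo-like kinases build the spindle, the spindle checkpoint holds the cell until every kinetochore is attached, and the anaphase-promoting complex (APC/C) then destroys the cyclins so that the cell can divide. Transcripts of these genes accumulate in G2 and mitosis and are scarce in resting cells. Macrophages in tumours arise from blood monocytes and can also divide in the tissue.

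The libraries held between 6329 and 10032 cells and between 26356819 and 78722763 UMIs, and IRF3/7 was the shallowest. The limit that a count of 0 allows, 3 UMIs over a library, corresponded to between 0.0381 and 0.114 CPM, the usual unit of counts scaled to a fixed total of UMIs. The libraries shared their droplets: 4830 of 29259 droplet barcodes occurred in at least 2 libraries, and these held 10018 of the 34447 cells, which were separated by probe barcode. With 1 library per group there was no replicate and no test between groups. The ranges given in parentheses are 95% intervals, exact and for counting error alone, and they say nothing of the spread between tumours. The 4 comparisons share the CTRL and COX2i libraries, so they are not independent of each other.

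The promoters of these genes share sequence elements. The motif TTTGAA is the core of the cell cycle genes homology region (CHR), the element bound by the DREAM complex, which represses G2/M genes in resting cells, and CCAAT is the box bound by NF-Y. Promoters from RefSeq (GRCm38.p6, 250 bases before to 50 after the gene start) were matched for 35 of the 41 members. TTTGAA on either strand was present in 28 of the 35 (80%), against 14.4% of the 9982 matched genes of the whole table and 20.2% of all 27025 promoters. CCAAT on either strand was present in 80%, against 42.7% of the table, and both motifs in 68.6%, against 5.87%. A list of S-phase genes, most of them for DNA replication, had TTTGAA in 18.8% of its 32 matched promoters, and a list of other G2/M genes had it in 62.5% of 40. CCAAT was nearly as frequent in these lists as in the members, at 71.9% and 72.5%. Both motifs were present in 12.5% of the S-phase list and 50% of the other G2/M list. The members without TTTGAA in this window were Cks2, Bub1, Birc5, Sgo1, Cenpe, Nuf2 and Nusap1. A match is a description of the letters and not evidence of binding.

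The 100 bases directly before the gene start are printed for 4 members, 5′ to 3′ on the gene's strand, as examples with and without the motif. They were picked after the expression values were seen. Cdk1 and Top2a have it, while Nusap1, with a log2 ratio of -4.04 in IRF3/7 against CTRL among monocytes and macrophages, and Cks2, with 0.87, lack it. Capitals mark TTTGAA or its reverse complement TTCAAA. The Cdk1 window is chr10:69352913-69353012 (minus strand), the Top2a window chr11:99024190-99024289 (minus), the Nusap1 window chr2:119618198-119618297 (plus) and the Cks2 window chr13:51645132-51645231 (plus). In the gene models of the files' annotation 26 bases of the Cdk1 window fall inside the gene, and the other 3 windows lie wholly outside.
Cdk1: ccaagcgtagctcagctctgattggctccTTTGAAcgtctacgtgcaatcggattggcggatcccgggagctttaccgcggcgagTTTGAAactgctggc
Top2a: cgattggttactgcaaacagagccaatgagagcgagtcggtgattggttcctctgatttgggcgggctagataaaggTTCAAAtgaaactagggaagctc
Nusap1: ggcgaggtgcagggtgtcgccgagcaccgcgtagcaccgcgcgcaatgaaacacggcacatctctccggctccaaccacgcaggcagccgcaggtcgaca
Cks2: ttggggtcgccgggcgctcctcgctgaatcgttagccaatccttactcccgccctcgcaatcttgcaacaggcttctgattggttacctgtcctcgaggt

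In monocytes and macrophages, the 9 classes that made up most of each library, the mitotic genes stood highest in COX2i and lowest in IRF3/7. The summed level of the 41 genes, relative to all UMIs of those cells, was 2360 CPM in CTRL, 433 CPM in IRF3/7, 4323 CPM in COX2i and 1899 CPM in COX2i + 5-AZA. Relative to CTRL, the sum was 0.184 times as high in IRF3/7 (0.179 to 0.188), 1.83 times as high in COX2i (1.82 to 1.84) and 0.805 times as high in COX2i + 5-AZA (0.799 to 0.811). Adding 5-azacytidine to celecoxib went with a sum 0.439 times that of celecoxib alone (0.436 to 0.442). For 38 of the 41 genes the order was COX2i, CTRL, COX2i + 5-AZA, IRF3/7 from the highest to the lowest library. The exceptions were Cks2, Aurka and Kif20a, for which COX2i + 5-AZA was above CTRL. Levels of different genes are not compared with each other, since each gene was read by its own probes.

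**Figure D1:**
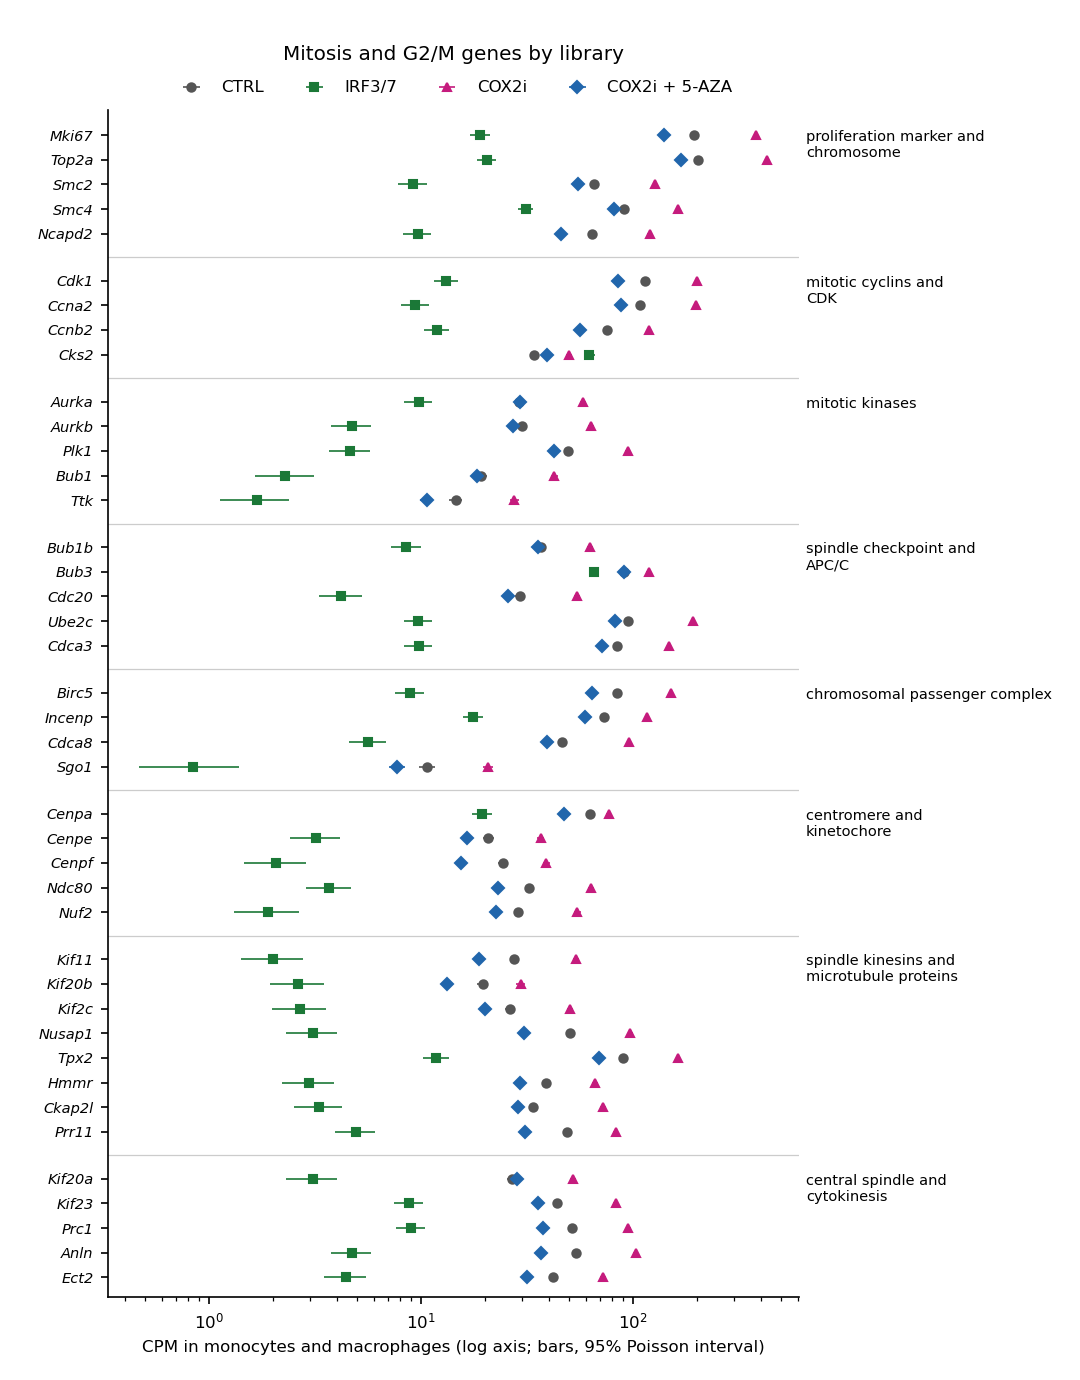
Level of each of the 41 mitosis and G2/M genes in monocytes and macrophages (x axis, CPM, log scale) with 1 point per library and exact 95% counting intervals as bars. COX2i is the highest library for 40 genes and IRF3/7 the lowest for 40, with Cks2 (62.3 CPM in IRF3/7 and 34.1 CPM in CTRL) turned the other way.

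Apart from Cks2, Aurka and Kif20a, the order was the same from chromosome condensation to cytokinesis. Mki67, which coats mitotic chromosomes and is the usual marker of dividing cells, stood at 194, 19.0, 382 and 139 CPM in CTRL, IRF3/7, COX2i and COX2i + 5-AZA, the order kept for the values that follow. Top2a, the topoisomerase that untangles replicated DNA, stood at 202, 20.4, 427 and 169 CPM. The counting intervals of Mki67 did not overlap between any of the libraries, and neither did those of Top2a. The condensin core subunit Smc4, which compacts chromosomes, spanned a narrower range of 90.3, 31.1, 163 and 81.0 CPM. Its partner Smc2 stood at 65.2, 9.13, 127 and 55.2 CPM. COX2i was the highest library and IRF3/7 the lowest for both subunits.

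Cdk1 stood at 114, 13.1, 201 and 84.7 CPM. Its cyclin partners followed the same order, with Ccna2 (cyclin A2) at 107, 9.41, 198 and 88.0 CPM. Ccnb2 (cyclin B2) stood at 75.2, 11.9, 119 and 56.0 CPM. Cks2, a small subunit that binds cyclin-dependent kinases, was the one member that was highest in IRF3/7, at 34.1, 62.3, 49.95 and 39.3 CPM.

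Among the mitotic kinases, Plk1 (polo-like kinase of mitotic entry and spindle assembly) stood at 49.5, 4.65, 94.2 and 42.3 CPM. Aurkb, the kinase of the chromosomal passenger complex that corrects kinetochore attachment, stood at 29.9, 4.70, 63.4 and 27.2 CPM. Aurka, which works at spindle poles, was at 29.1, 9.74, 58.4 and 29.4 CPM. In COX2i + 5-AZA Aurka was thus at the CTRL level, with a log2 ratio of 0.01. The checkpoint kinases Bub1 and Ttk stood at 2.30 and 1.68 CPM in IRF3/7.

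In the checkpoint and the APC/C, Cdc20, the mitotic activator of the APC/C, stood at 29.2, 4.20, 54.4 and 25.9 CPM. Ube2c, the ubiquitin-conjugating enzyme of the APC/C, stood at 94.3, 9.69, 192 and 82.5 CPM. Bub3, which binds the checkpoint kinases, had the narrowest range, at 91.0, 65.5, 118 and 91.0 CPM. Birc5 (survivin), of the chromosomal passenger complex, stood at 84.2, 8.85, 150 and 64.1 CPM. The scaffold of that complex, Incenp, stood at 73.1, 17.6, 117 and 59.5 CPM. The range was thus wide for the APC/C enzyme and its activator and narrow for Bub3.

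At the kinetochore, Cenpf, a protein of G2 and mitosis, stood at 24.4, 2.07, 39.0 and 15.5 CPM. Cenpa, the centromeric form of histone H3, stood at 62.6, 19.4, 76.8 and 47.3 CPM. Kif11 (Eg5), the kinesin that pushes the spindle poles apart, stood at 27.6, 2.02, 53.9 and 18.8 CPM. Nusap1, which bundles spindle microtubules, stood at 50.7, 3.08, 97.0 and 30.5 CPM. Cenpa thus held more of its CTRL level in IRF3/7 than Cenpf, Kif11 and Nusap1. For cytokinesis, Anln (anillin of the contractile ring) stood at 53.8, 4.70, 103 and 36.9 CPM. Ect2, the activator of RhoA at the cleavage furrow, stood at 41.98, 4.42, 72.3 and 31.5 CPM.

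Further members had the same order. Tpx2, which activates Aurora A on the spindle, stood at 89.3, 11.8, 163 and 68.8 CPM. Ndc80, the kinetochore subunit that grips microtubules, stood at 32.3, 3.7, 63.6 and 23.0 CPM. Kif2c (MCAK), a kinesin that takes microtubule ends apart, stood at 26.3, 2.69, 50.4 and 20.1 CPM. IRF3/7 was lowest and COX2i highest for each of them. Prc1, which crosslinks microtubules of the central spindle, stood at 51.4, 8.96, 95.1 and 37.8 CPM. Kif23, the kinesin of the centralspindlin complex, stood at 43.6, 8.79, 82.8 and 35.7 CPM. Sgo1 (shugoshin), which protects cohesion at centromeres, was the member with the fewest counts in IRF3/7, at 10.7, 0.840, 20.7 and 7.72 CPM. Its IRF3/7 value was still above the limit that a count of 0 allows.

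A gene was counted as higher or lower when its CPM differed by at least 1.5-fold between 2 libraries, provided that both together held at least 20 of its UMIs. All 41 members passed that minimum in monocytes and macrophages. In IRF3/7 against CTRL, 39 of 41 members were lower, where 48.4% of all genes tested were lower, and 1 (Cks2) was higher, where 13.6% of all genes were higher. The median log2 ratio was -3.12 over the members and -0.55 over all genes tested, so the members lay below the general shift of this shallower library. Nusap1 had the lowest log2 ratio at -4.04 (-4.45 to -3.66), followed by Nuf2 at -3.92 (-4.45 to -3.43), which binds microtubules at the kinetochore, and Kif11 at -3.78 (-4.29 to -3.30). At the other end were Smc4 at -1.54 (-1.67 to -1.41), Bub3 at -0.48 (-0.57 to -0.38) and Cks2 at 0.87 (0.76 to 0.98). Bub3 lay above the median of all genes, and was the only member that moved by less than 1.5-fold. The medians of the 8 role groups ran from -2.80 for the checkpoint and APC/C to -3.33 for spindle kinesins and microtubule proteins.

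In COX2i against CTRL, 38 of 41 members were higher, where 6.83% of all genes tested were higher, and 0 were lower, where 10.6% of all genes were lower. Most lay between 1.5-fold and 2-fold, since 7 of the 41 were higher by at least 2-fold. The share of all genes past 2-fold is not given here, so the 7 describe the size of the shift only. The median log2 ratio was 0.90 over the members and 0.01 over all genes. Mki67 had a log2 ratio of 0.98 (0.94 to 1.01), Top2a of 1.08 (1.05 to 1.11) and Cdk1 of 0.82 (0.78 to 0.87). Cenpa at 0.29, Bub3 at 0.38 and Cks2 at 0.55 were the 3 members below the 1.5-fold limit. The medians of the role groups ran from 0.75 for cyclins and CDK to 1.01 for mitotic kinases.

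In COX2i + 5-AZA against COX2i, 39 of 41 members were lower, where 19.3% of all genes tested were lower, and 0 were higher, where 9.99% of all genes were higher. The median log2 ratio was -1.22 over the members and -0.19 over all genes. Nusap1 again had the lowest value at -1.67 (-1.74 to -1.60), beside Kif11 at -1.52 and Mki67 at -1.45. Cks2 at -0.35 and Bub3 at -0.38 were the 2 members that moved by less than 1.5-fold.

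The module lay somewhat below CTRL under the combined treatment. Among CTRL, COX2i and COX2i + 5-AZA, 38 of the 41 members were lowest in COX2i + 5-AZA. In COX2i + 5-AZA against CTRL, 3 of 41 members were lower, where 20.8% of all genes tested were lower, and 0 were higher, where 9.09% of all genes were higher. The 3 were Nusap1 at -0.73, Cenpf at -0.66 and Prr11 at a log2 ratio past the limit on 48.8 CPM in CTRL and 31.0 CPM in COX2i + 5-AZA. With a limit of 2-fold, or with median-of-ratios scaling, 0 were lower. The shares of all genes lower under either setting are not given here, so this count has nothing to be read against. The median over the members was -0.35, against -0.16 over all genes. Bub3 was equal in both libraries at 91.0 CPM, and Kif20a, a kinesin of the central spindle, was at 0.08.

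**Figure D2:**
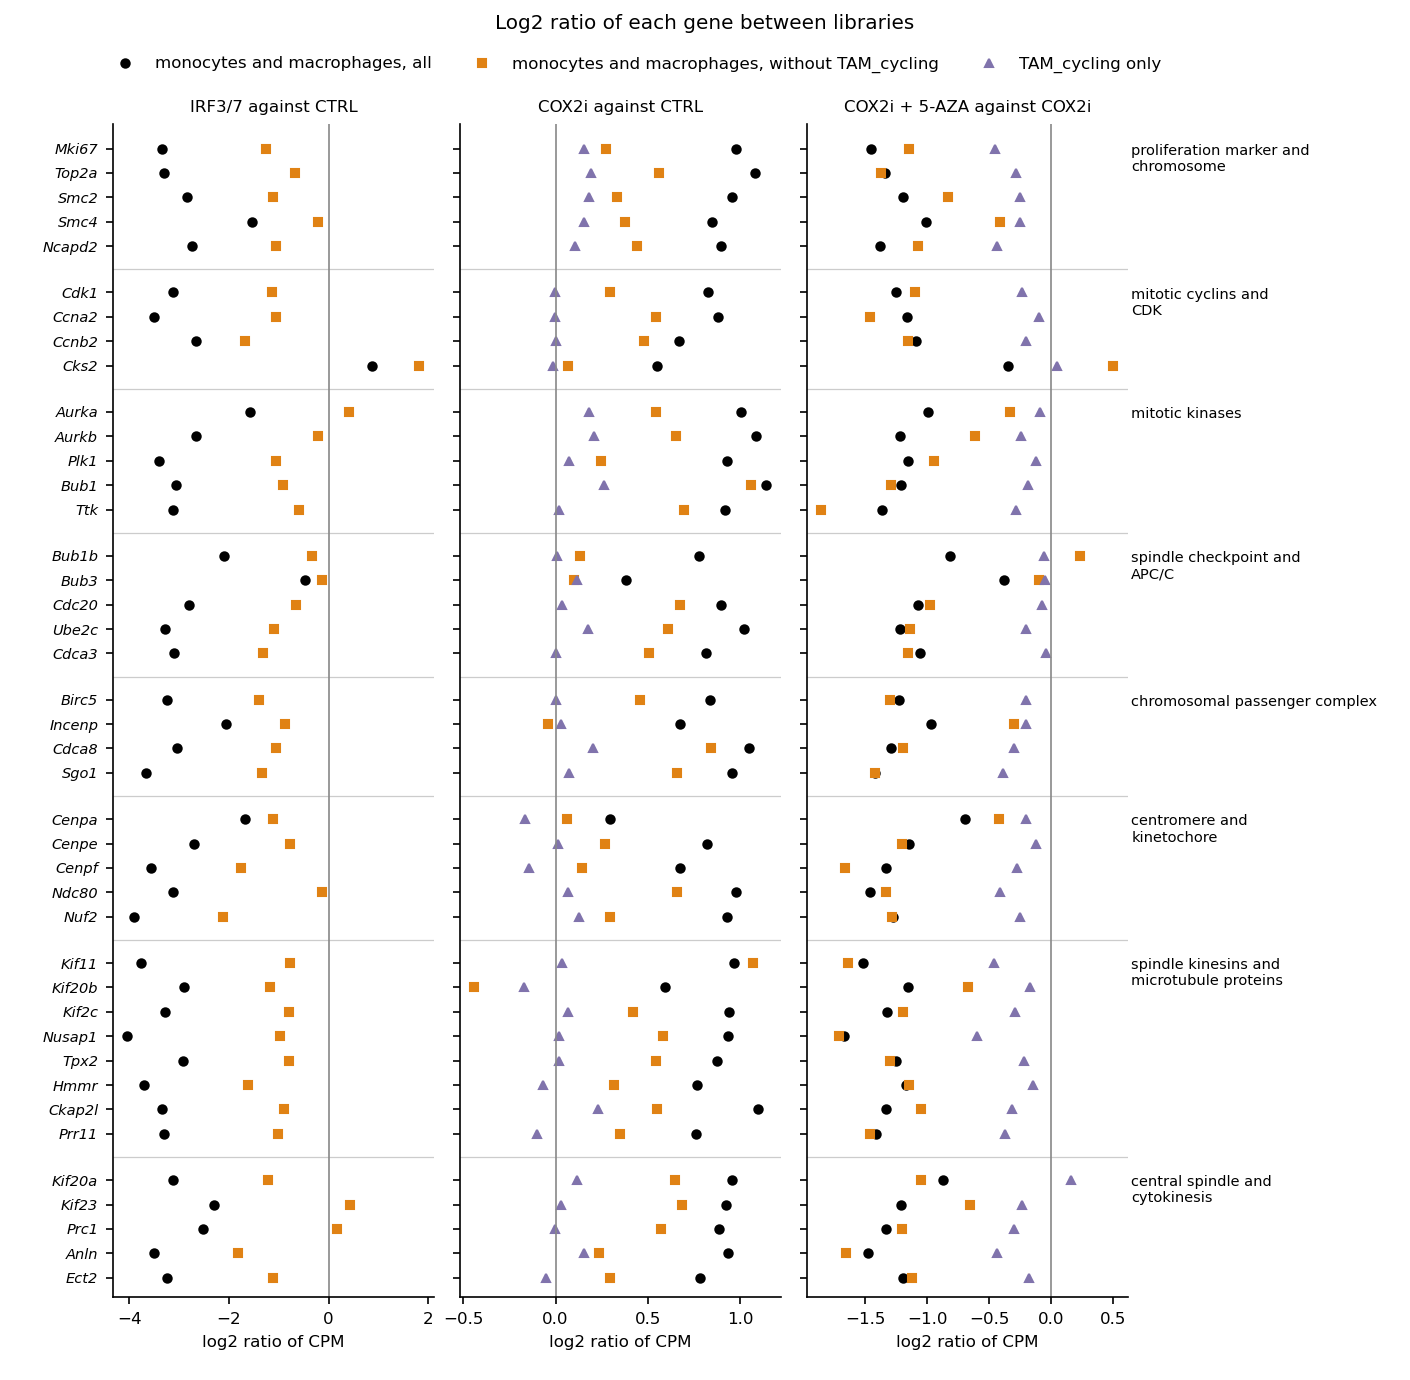
Log2 ratio of CPM (x axis) of each of the 41 members for 3 comparisons, in all monocytes and macrophages (circles), in the same cells without TAM_cycling (squares) and, for the comparisons with enough such cells, in TAM_cycling alone (triangles), with a vertical line at 0. The member median in IRF3/7 against CTRL moves from -3.12 to -1.03 once TAM_cycling is left out, and in COX2i against CTRL it is 0.90 in all the cells and 0.03 within TAM_cycling.

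The class TAM_cycling held most of the module in 3 libraries. It numbered 1457 cells in CTRL, 20 in IRF3/7, 3164 in COX2i and 1320 in COX2i + 5-AZA, which were 19.1%, 0.397%, 42.9% and 15.0% of monocytes and macrophages. It supplied 81.7%, 8.58%, 92.2% and 82.7% of the member UMIs of those cells. By the study's methods, classes came from clusters on the most variable genes, after a difference between the G2/M and S-phase scores was regressed out. Whether each member was among those genes is not given. Since the class is named for cycling, its high level is taken as part of its definition and its size as following these genes. Over the 3 libraries with at least 50 of its cells, the mean fold of TAM_cycling over the other monocytes and macrophages had a median of 14.7 over the members. It was 33.6 for Nusap1 and 25.6 for Top2a, but 3.73 for Cks2, 2.63 for Cenpa and 1.98 for Bub3.

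TAM_cycling cells carried macrophage transcripts in every library. Csf1r, the receptor for the macrophage growth factor CSF1, stood at 1191, 622, 1324 and 1042 CPM and the complement gene C1qa at 8183, 8041, 6507 and 7018 CPM. All 8 genes of a macrophage marker list were detected. The 8 together summed to 46616, 42549, 27914 and 27503 CPM. A list of 6 T cell markers summed to at most 0.0850 CPM, and Cd3e among them was at 0 in all 4 libraries. The lists of 4 mast cell, 6 NK, 7 dendritic cell and 3 B cell markers summed to at most 4.54, 19.6, 21.1 and 52.4 CPM. The sums ran from 31.6 to 216 CPM for 5 neutrophil markers, from 58.9 to 387 CPM for 6 non-immune markers and from 381 to 904 CPM for 4 monocyte markers. They also differed between libraries: in COX2i against CTRL all 5 neutrophil markers were lower (median -2.03) and all 4 monocyte markers higher (0.73). All 6 non-immune markers were lower in COX2i + 5-AZA, against COX2i (-1.46) and against CTRL (-1.32). Relative to COX2i, the 4 neutrophil and 3 NK markers past the minimum were all higher in COX2i + 5-AZA (2.57 and 2.80). Of 4 monocyte markers, 3 were higher and 1 lower there (1.64). Their part in the member values was not tested.

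Within TAM_cycling the module differed little between the 3 libraries that held the class in number. Its sum was 6692 CPM in CTRL, 7059 CPM in COX2i and 5951 CPM in COX2i + 5-AZA. The ratio of COX2i to CTRL was 1.05 (1.05 to 1.06), that of COX2i + 5-AZA to COX2i 0.843 (0.837 to 0.849) and that of COX2i + 5-AZA to CTRL 0.889 (0.882 to 0.897). The 20 cells of IRF3/7 summed to 4348 CPM, with an interval for counting error of 4023 to 4691 CPM. In COX2i against CTRL, 0 of 41 members passed 1.5-fold in either direction, where 4.25% of all genes were higher and 7.25% lower. With 5-azacytidine added to celecoxib (COX2i + 5-AZA against COX2i), 0 were higher (7.18% of all genes) and 1 was lower (11.6% of all genes), which was Nusap1 at -0.60. For COX2i + 5-AZA against CTRL, 0 were higher (7.67% of all genes) and 0 were lower (15.5% of all genes). These counts are below the shares of all genes in each case, but the class is taken to be grouped by these same genes. Near-equal levels within it are then largely fixed in advance, so nothing about the members is drawn from the counts.

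Small differences within the class ran mostly one way, since 39 of the 41 members were lower in COX2i + 5-AZA than in COX2i and 36 were lowest in COX2i + 5-AZA of the 3 libraries. All genes drifted the same way, with a median log2 ratio of -0.091 in COX2i + 5-AZA relative to COX2i, beside -0.24 for the members. Mki67 stood at 573 CPM in CTRL, 638 CPM in COX2i and 467 CPM in COX2i + 5-AZA. Top2a stood at 635, 726 and 597 CPM in those libraries. Cdk1 stood at 335, 334 and 282 CPM and Cks2 at 75.1, 74.4 and 76.6 CPM. Kif20a, at 78.3, 85.0 and 94.95 CPM, and Cks2 were the 2 members that were higher in COX2i + 5-AZA than in COX2i.

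With TAM_cycling left out, the other 8 classes of monocytes and macrophages summed to 605, 400, 774 and 446 CPM. The ratio of IRF3/7 to CTRL was then 0.660 (0.643 to 0.678), or -0.60 on the log2 scale, and it depended on the processing, from -0.065 in cells with over 2000 genes to -1.03 as the median over members, with the class mix set aside for the reason given below. The ratio of COX2i to CTRL was 1.28 (1.26 to 1.30), that of COX2i + 5-AZA to COX2i 0.576 (0.565 to 0.587) and that of COX2i + 5-AZA to CTRL 0.736 (0.723 to 0.750). All 4 kept the direction seen with the class included and were closer to 1, except that of COX2i + 5-AZA to CTRL, which was further from it. The sum over all monocytes and macrophages had a log2 ratio of COX2i to CTRL of 0.87. With the level of each class weighted by its share of UMIs in CTRL in both libraries, so that the makeup was held equal, it was 0.14. TAM_cycling gave 78.1% of that weighted sum in COX2i. Since the size of TAM_cycling is taken to follow these genes, holding its share equal removes part of the difference by construction. Nothing is therefore drawn from the smaller value. The comparisons with COX2i + 5-AZA also became smaller and are given with the processing below. For IRF3/7 the makeup could not be held equal, since the classes with at least 20 cells in both libraries held 30.1% of the UMIs of these cells in CTRL, and 1.77% without TAM_cycling. Outside TAM_cycling, the 6 non-immune markers were all lower in IRF3/7 against CTRL (median -2.71), in COX2i + 5-AZA relative to COX2i (-1.68) and in COX2i + 5-AZA relative to CTRL (-1.55), and 1 was higher in COX2i than in CTRL (0.06). Their part in the member values was not tested.

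Counts of members followed. In IRF3/7 against CTRL, 32 of 41 members were lower (45.5% of all genes) and 1, Cks2, was higher (13.4% of all genes), with a median of -1.03 for members and -0.49 for all genes. In COX2i against CTRL, 11 were higher (4.94% of all genes) and 0 were lower (9.88% of all genes), with a median of 0.46 for members and -0.01 for all genes. In COX2i + 5-AZA against COX2i, 0 were higher (9.01% of all genes) and 34 were lower (17.9% of all genes), with a median of -1.15 for members and -0.18 for all genes. In COX2i + 5-AZA against CTRL, 0 were higher (9.43% of all genes) and 24 were lower (23.1% of all genes), with a median of -0.68 for members and -0.19 for all genes.

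Cks2 and Bub3 stood apart from the other members in these cells. Cks2 stood at 17.5, 62.0, 18.3 and 25.9 CPM outside TAM_cycling, so that IRF3/7 was higher by 1.83 on the log2 scale. Bub3 was nearly level at 71.7, 65.0, 76.8 and 71.5 CPM. Mki67 kept the common order at 40.8, 17.2, 49.3 and 22.2 CPM, and Top2a stood at 26.9, 16.9, 39.7 and 15.3 CPM. The spindle genes Kif23, Aurka and Prc1 had values above CTRL in IRF3/7, with log2 ratios of 0.43, 0.41 and 0.17, none past 1.5-fold. The class Infl_Mono, inflammatory monocytes, made up 4335 of the IRF3/7 cells and summed to 270 CPM, of which 63.1% came from Bub3, Cks2, Smc4 and Cenpa alone.

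Neutrophils, which no longer divide, were taken as a comparison class. The deposited neutrophil class summed to 826 CPM in CTRL (65 cells), 740 CPM in IRF3/7 (49 cells) and 497 CPM in COX2i + 5-AZA (196 cells), and COX2i held only 5. The sums of monocytes and macrophages outside TAM_cycling, 605, 400 and 446 CPM in those libraries, were below this level. Single classes outside TAM_cycling were above it, as TAM_H2Ab1 at 1180 CPM in IRF3/7. The neutrophil class was not pure, since the macrophage list summed in it to 37215, 8416 and 5979 CPM. The part of free RNA or mixed droplets in these values was not tested, and no doublet caller was run.

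**Figure D3:**
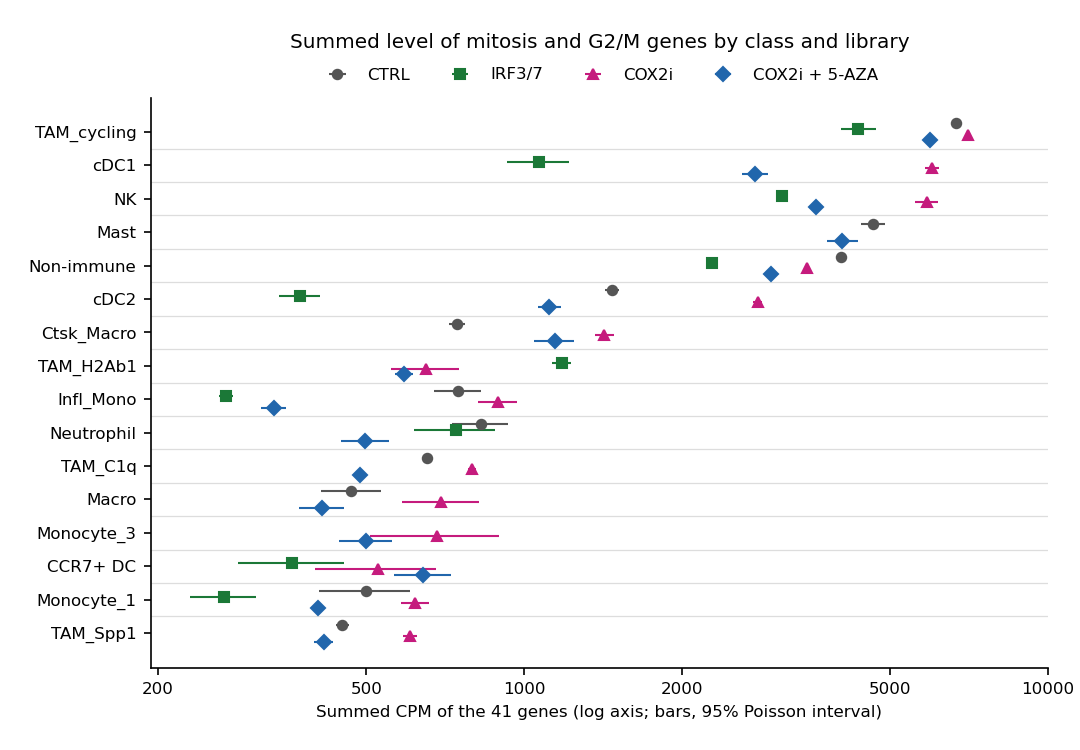
Summed level of the 41 members (x axis, CPM, log scale) by deposited cell class (rows), for classes with at least 20 cells, with 1 point per library and exact 95% counting intervals. TAM_cycling lies at 4348 to 7059 CPM. NK cells, cDC1, mast cells and non-immune cells exceed 1000 CPM in each library shown, and most monocyte and macrophage classes lie below 1000 CPM.

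The module was also counted per cell. Each cell with at least 2000 UMIs was thinned to that number, so that depth was equal, and cells in which at least 5 different members had a UMI were counted as positive. In monocytes and macrophages these were 14.2% in CTRL (1051 of 7402 cells, 13.4 to 15.0), 1.11% in IRF3/7 (45 of 4060, 0.810 to 1.48), 31.2% in COX2i (2243 of 7191, 30.1 to 32.3) and 11.2% in COX2i + 5-AZA (933 of 8309, 10.6 to 11.9). The same library order as for the summed level was thus present at equal depth. Thinning left out 212, 975, 187 and 492 shallower cells, and the shares without thinning were 30.5%, 1.65%, 54.4% and 24.1%. A cell with 5 members lies at the limit, and 93, 3, 163 and 81 of the counted cells had exactly 5, while 149, 6, 264 and 150 others had 4.

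Neutrophils thinned in the same way gave 6.0% in CTRL (3 of 50 cells), 2.56% in IRF3/7 (1 of 39) and 1.32% in COX2i + 5-AZA (2 of 151), and without thinning 10.8%, 4.08% and 3.06%. Median UMIs per cell before thinning were 6259.5, 3148 and 6300 for monocytes and macrophages and 3900, 3034 and 2626.5 for neutrophils in those libraries. Of the 45 monocytes and macrophages with at least 5 members in IRF3/7, 29 were TAM_H2Ab1, 10 TAM_cycling, 3 Infl_Mono and 3 Ctsk_Macro. Mki67 alone was seen in 16.1%, 1.85%, 30.1% and 11.1% of thinned monocytes and macrophages, and in 12.0%, 2.56% and 3.31% of the neutrophils of CTRL, IRF3/7 and COX2i + 5-AZA. Bub3 was seen in 15.0%, 11.7%, 18.1% and 14.9%.

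Outside TAM_cycling the share of cells with at least 5 members was 2.42%, 0.866%, 3.68% and 1.49%. Inside it, the share was 62.7% in CTRL, 66.6% in COX2i and 63.0% in COX2i + 5-AZA. The frequency of positive cells within the class was close in the 3 libraries, which a grouping by these genes would largely fix in advance. Positive monocytes and macrophages held more UMIs, with medians of 10173, 7841, 10663 and 12899 UMIs before thinning, against 5920, 3521, 6547.5 and 6194 for the others.

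The cell types that carried the module differed by library. Of all cells with at least 5 members, TAM_cycling made up 67.0% in CTRL (907 of 1353), 75.9% in COX2i (2094 of 2759) and 75.4% in COX2i + 5-AZA (829 of 1099). In IRF3/7 there were 160 such cells, of which 66 were NK cells (41.3%), 37 non-immune cells, 29 of the macrophage class TAM_H2Ab1, 10 TAM_cycling and 4 CD8+ T cells. The CD8+ T class of IRF3/7 held few UMIs but carried the module, with Mki67 at 647 CPM (66 UMIs) and Top2a at 686 CPM (70 UMIs). Monocytes and macrophages contributed 74.0%, 29.9%, 82.9% and 87.0% of all member UMIs.

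**Figure D4:**
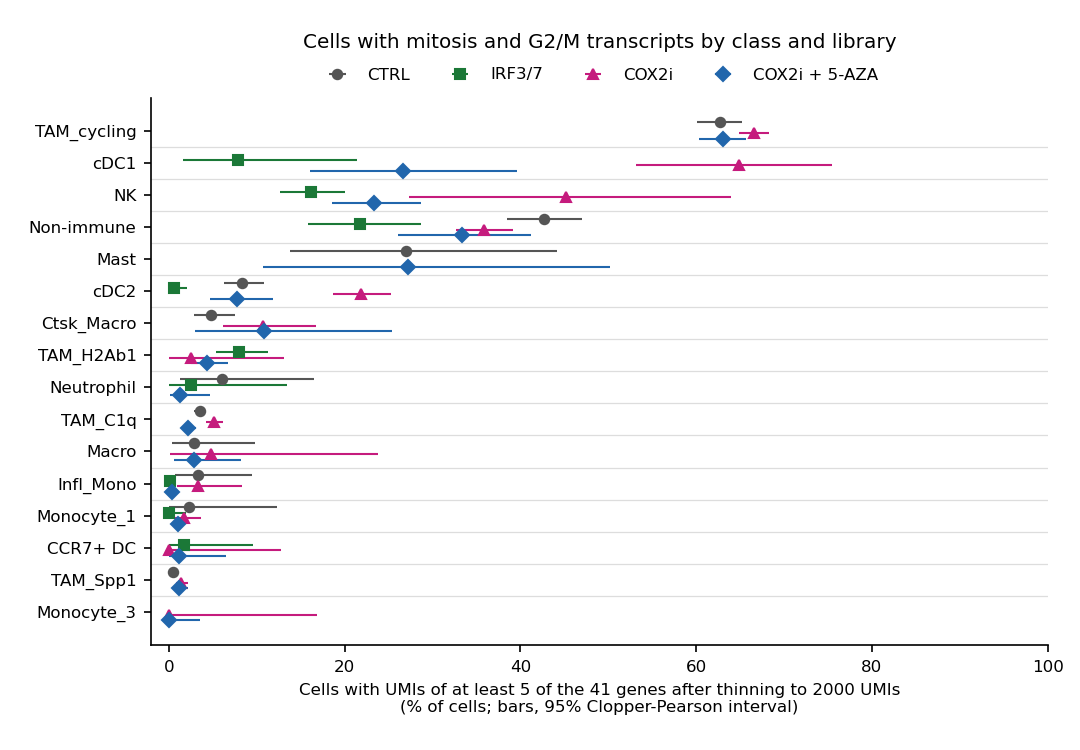
Percent of cells in which at least 5 of the 41 members had a UMI after thinning to 2000 UMIs (x axis), by cell class (rows) and library, for classes with at least 20 such cells, with exact 95% binomial intervals. TAM_cycling stays between 62.7% and 66.6% in CTRL, COX2i and COX2i + 5-AZA, and NK cells reach 16.1% in IRF3/7 and 45.2% in COX2i.

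NK cells, cytotoxic lymphocytes that a Rag2-/- host still makes, carried the module in the 3 libraries that held enough of them, at the lowest level in IRF3/7. Their sum was 3109 CPM in IRF3/7 (568 cells), 5875 CPM in COX2i (50 cells) and 3619 CPM in COX2i + 5-AZA (437 cells), and CTRL held 11. The NK receptor gene Ncr1 stood at 784, 455 and 574 CPM in the 3 libraries, beside 206, 611 and 1041 CPM of the macrophage gene C1qa. Relative to COX2i, in COX2i + 5-AZA the sum had a ratio of 0.616 (0.582 to 0.652), with 26 members lower (13.8% of all genes) and 0 higher (15.9% of all genes). The median was -0.64 for members and -0.03 for all genes. Mki67 stood at 290 CPM in IRF3/7, 490 CPM in COX2i and 335 CPM in COX2i + 5-AZA. In the same cells 6 of 8 macrophage markers were higher in COX2i + 5-AZA than in COX2i and 0 lower (median 1.03), while the 4 non-immune markers past the minimum were all lower (-0.89). The part of either in the member values was not tested. Shares of NK cells with at least 5 members were 16.1%, 45.2% (14 of 31) and 23.4%.

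Dendritic cells of the cDC2 type, which present antigen to CD4+ T cells, followed the order of monocytes and macrophages at a lower level. Their sum was 1474 CPM in CTRL (645 cells), 373 CPM in IRF3/7 (390 cells), 2796 CPM in COX2i (666 cells) and 1118 CPM in COX2i + 5-AZA (261 cells), and 32 of 41 members had the same order of libraries as in monocytes and macrophages. In IRF3/7 against CTRL, 36 of the 39 members past the minimum were lower (32.7% of all genes) and 0 were higher (10.4% of all genes). In COX2i against CTRL, 38 were higher (8.55% of all genes) and 0 were lower (6.19% of all genes). For the combined treatment against celecoxib, 37 were lower (18% of all genes) and 0 were higher (7.89% of all genes). Between COX2i + 5-AZA and CTRL, 14 of 40 were lower (18.6% of all genes) and 0 were higher (9.18% of all genes). The median log2 ratios of the members were -2.99, 1.00, -1.55 and -0.39 in these 4 comparisons, beside -0.29, 0.00, -0.11 and -0.14 for all genes. Markers of other cells shifted in the same class. In IRF3/7 against CTRL, 3 of 4 monocyte markers were higher and 1 lower (median 2.27), with sums of 1026 CPM in CTRL and 6529 CPM in IRF3/7. Of 8 macrophage markers 5 were lower and 0 higher (-0.96), with 2 above 0. Monocyte markers were also higher in COX2i against CTRL (3, with 0 lower, 0.87) and in COX2i + 5-AZA against COX2i (3, with 1 lower, 1.37). Neutrophil markers past the minimum were all lower in the former (3, -3.75) and all higher in the latter (4, 3.43). Non-immune markers moved in the direction of the members. All 6 were lower in IRF3/7 than in CTRL (-1.05), 3 of 6 were higher and 0 lower in COX2i (0.65), and with 5-azacytidine added to celecoxib 5 were lower and 0 higher (-1.36). Their sums were 99.8, 44.2, 185 and 65.6 CPM. The part of these other cells in the member values was not tested. Shares of cDC2 with at least 5 members were 8.37%, 0.583%, 21.9% and 7.76%.

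The cDC1 class, which presents antigen to CD8+ T cells, was small. It summed to 1066 CPM in IRF3/7 (38 cells), 6019 CPM in COX2i (79 cells) and 2764 CPM in COX2i + 5-AZA (60 cells), and CTRL held 16 cells. Between COX2i + 5-AZA and COX2i, 37 members were lower (16.4% of all genes) and 0 were higher (9.08% of all genes), and the ratio of the sums was 0.459. All 8 macrophage markers were below 0 in that comparison, 3 of them past 1.5-fold (median -0.45), and the 1 non-immune marker past the minimum was lower (-3.03), and the part of these in the member values was not tested. Shares of cDC1 cells with at least 5 members were 7.89%, 64.9% and 26.7%, so the COX2i share was like that of TAM_cycling.

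Cells that were not immune were left after the CD45 sort and did not follow the order of the macrophages. They had little Ptprc, the gene of CD45, at 26.9, 18.3, 37.4 and 34.5 CPM, and Col1a1, a collagen gene, at 1845, 1691, 3155 and 5257 CPM. Their member sum was 4029 CPM in CTRL (554 cells), 2282 CPM in IRF3/7 (172), 3479 CPM in COX2i (913) and 2959 CPM in COX2i + 5-AZA (160), and 35 of 41 members were highest in CTRL. In COX2i against CTRL, 0 were higher (10.6% of all genes) and 0 were lower (3.59% of all genes), but 37 of 41 log2 ratios were below 0, with a median of -0.20 and a ratio of the sums of 0.863 (0.851 to 0.875). In IRF3/7 against CTRL, 36 were lower (27.8% of all genes) and 0 were higher (9.93% of all genes), with a median of -0.89 for members and -0.29 for all genes. In COX2i + 5-AZA relative to COX2i, 5 were lower (7.71% of all genes) and 0 were higher (6.25% of all genes). Under the combined treatment against CTRL, 16 were lower (7.16% of all genes) and 0 were higher (10.3% of all genes). Relative to COX2i, 6 of 8 macrophage markers were lower and 0 higher (median -0.74), and the 3 neutrophil markers past the minimum were all higher (2.45). Relative to CTRL, 4 of 5 neutrophil markers were lower and 1 higher (-1.67), and 3 of 6 non-immune markers were higher and 0 lower (0.72). The part of these shifts in the combined treatment was not tested. In IRF3/7 against CTRL, all 8 macrophage markers were lower in this class as well (median -3.32, sums of 306 CPM in IRF3/7 and 2835 CPM in CTRL), while the 6 non-immune markers had a median of -0.27 and the part of macrophage RNA in the member values was not tested. Relative to CTRL, in COX2i 4 of 6 non-immune markers were higher (0.74), 3 of 4 monocyte markers were higher and 1 lower (0.95), and the 4 neutrophil markers past the minimum were all lower (-4.79), and the part of these shifts was not tested either. Which of these cells were melanoma cells was not resolved here.

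Among the macrophage classes outside TAM_cycling, TAM_C1q stood at 653 CPM in CTRL (3199 cells), 796 CPM in COX2i (2023 cells) and 487 CPM in COX2i + 5-AZA (1379 cells). With celecoxib alone, 8 of its 41 members were higher than in CTRL (5.15% of all genes) and 0 lower (9.82% of all genes). With 5-azacytidine added to celecoxib 33 were lower (10.9% of all genes) and 0 higher (7.66% of all genes). Against CTRL the combined treatment had 22 lower (14.2% of all genes) and 0 higher (7.02% of all genes). TAM_Spp1 stood at 450, 605 and 414 CPM in the same libraries. Here 19 of the 41 members were higher in COX2i than in CTRL (5.34% of all genes) and 0 lower (8% of all genes). With 5-azacytidine added to celecoxib 26 were lower (12.9% of all genes) and 1 higher (6.87% of all genes). Against CTRL the combined treatment had 12 of 40 lower (14.7% of all genes) and 2 higher (6.49% of all genes). In COX2i relative to CTRL, all 5 neutrophil markers were lower in both classes (medians of -1.91 and -2.25), and 2 of 4 monocyte markers were higher in TAM_C1q (0.77) and 1 of 4 in TAM_Spp1 (0.23). The 6 non-immune markers moved with the members under the combined treatment. All were lower than in COX2i, with medians of -1.43 in TAM_C1q and -1.64 in TAM_Spp1, and all were lower than in CTRL, with medians of -1.41 in both classes. Their sums in CTRL, COX2i and COX2i + 5-AZA were 456, 535 and 189 CPM in TAM_C1q and 271, 350.0 and 109 CPM in TAM_Spp1, and the part of these markers' cells in the member values was not tested. TAM_H2Ab1, a class named after an MHC class II gene, stood at 1180 CPM in IRF3/7 (385 cells), 649 CPM in COX2i (41 cells) and 590 CPM in COX2i + 5-AZA (419 cells), and 29 of 41 members were highest in IRF3/7 among its libraries. In IRF3/7 the share of its thinned cells with at least 5 members was 7.97%. Ctsk_Macro stood at 745 CPM in CTRL (380 cells) and 1423 CPM in COX2i (157 cells), a ratio of 1.91, with 33 of 40 members higher (10.6% of all genes) and 0 lower (6.88% of all genes). Its 8 macrophage markers were all below 0 in that comparison, 4 of them past 1.5-fold (median -0.52), with sums of 32189 CPM in CTRL and 13709 CPM in COX2i, and their part was not tested. Monocyte_1 stood at 619 CPM in COX2i (394 cells) and 403 CPM in COX2i + 5-AZA (3640 cells), with 29 of 41 members lower (12.1% of all genes) and 2 higher (7.97% of all genes).

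Infl_Mono, the class that made up most of the IRF3/7 monocytes and macrophages, stood at 748 CPM in CTRL (93 cells), 270 CPM in IRF3/7 (4335 cells), 891 CPM in COX2i (130 cells) and 333 CPM in COX2i + 5-AZA (764 cells). The ratio of IRF3/7 to CTRL was 0.361 (0.324 to 0.403). In that comparison 29 of the 41 members passed the minimum of UMIs, of which 24 were lower (33% of all genes) and 1 was higher (13.9% of all genes). Between COX2i and CTRL, 18 passed it, of which 5 were higher (12.9% of all genes) and 3 lower (12% of all genes). With 5-azacytidine added to celecoxib, 25 of 30 were lower (16.7% of all genes) and 0 higher (10% of all genes). All 6 non-immune markers were lower in this class too, by a median of -2.35 in IRF3/7 against CTRL and of -2.005 in COX2i + 5-AZA relative to COX2i, and in Monocyte_1 by a median of -1.74 in the latter comparison. Macrophage markers were lower in Infl_Mono in the same comparisons, all 8 in IRF3/7 (-1.81) and 5 of 8 in COX2i + 5-AZA (-1.03), and all 5 neutrophil markers were higher in both (1.81 and 1.98). The part of such RNA in the member values was not tested.

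S-phase genes were set beside the module, since a cell passes through both. In monocytes and macrophages the S-phase list of 44 genes summed to 2562, 940, 4121 and 2208 CPM. Member UMIs per S-phase UMI were 0.921 in CTRL, 0.461 in IRF3/7, 1.05 in COX2i and 0.860 in COX2i + 5-AZA. In TAM_cycling the values were 1.06, 0.525, 1.12 and 1.02. The S-phase list there summed to 6324 CPM in CTRL, 6322 CPM in COX2i and 5811 CPM in COX2i + 5-AZA, a narrower range than that of the members. In cDC1 the values were 0.328 in IRF3/7, 1.23 in COX2i and 0.631 in COX2i + 5-AZA. Of the positive monocytes and macrophages, 32.4%, 28.9%, 25.6% and 34.1% had fewer than 5 S-phase genes, which are the cells with the module and little of the S-phase list.

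**Figure D5:**
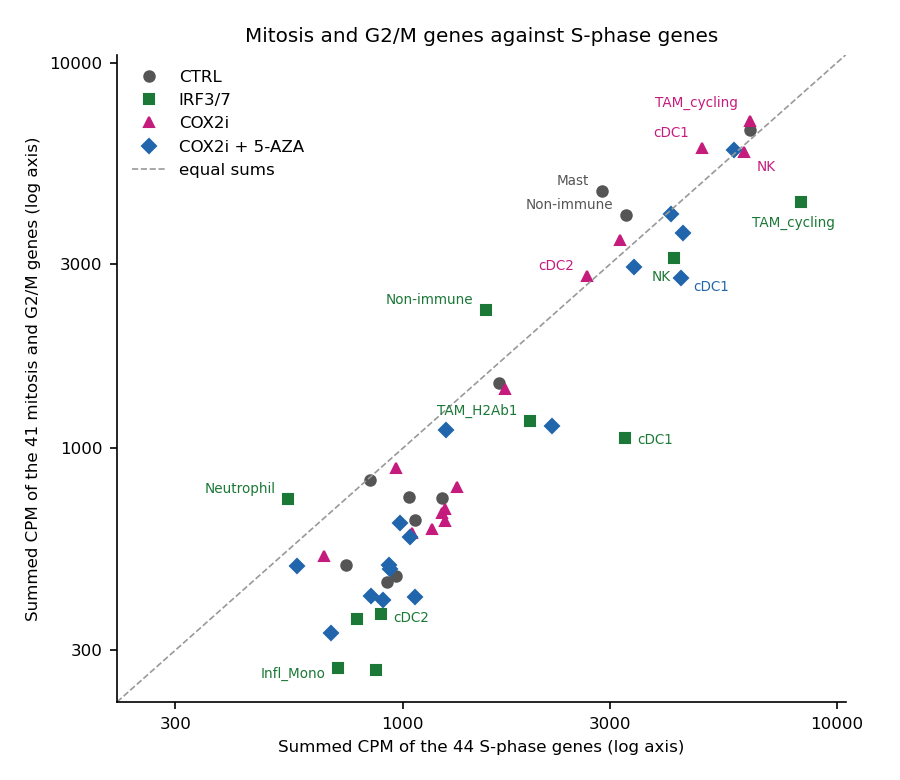
Summed level of the S-phase list (x axis, CPM, log scale) against the summed level of the 41 members (y axis, CPM, log scale), with 1 point per cell class of at least 20 cells and library and a dashed line at equal sums. The TAM_cycling points of CTRL, COX2i and COX2i + 5-AZA lie near equal sums (ratios 1.06, 1.12 and 1.02), and the 20 cells of IRF3/7 lie lower at 0.525.

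Lists of related genes give the surroundings of the module in monocytes and macrophages. Their counts are to be read beside the shares of all genes in these cells, which were 13.6% higher and 48.4% lower in IRF3/7 relative to CTRL and 6.83% and 10.6% in COX2i relative to CTRL. For COX2i + 5-AZA they were 9.09% and 20.8% relative to CTRL, and 9.99% and 19.3% relative to COX2i. Of the 44 S-phase genes, 40 were lower and 0 higher in IRF3/7 against CTRL (median -2.12), 33 were higher and 0 lower in COX2i against CTRL (0.73), 37 were lower and 0 higher in COX2i + 5-AZA against COX2i (-0.97), and 2 were lower and 0 higher in COX2i + 5-AZA against CTRL (-0.23). Of 48 other G2/M genes, the counts of higher and lower genes were 1 and 42 (median -2.54), 39 and 0 (0.76), 0 and 43 (-1.15), and 0 and 9 (-0.33) in the same comparisons. In this list Depdc1a had the lowest log2 ratio in IRF3/7, -4.67, and Pttg1 (securin, which guards sister chromatid cohesion and also acts in interphase) the highest, 1.86, at 43.3, 157, 43.5 and 52.6 CPM. Pbk, a mitotic kinase, stood at 40.5, 2.52, 65.8 and 21.1 CPM. Lbr, a receptor of the nuclear envelope, had a log2 ratio of 0.33 in IRF3/7.

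Regulators of the cycle were more mixed. Of 30, the counts of higher and lower genes were 2 and 19 in IRF3/7 against CTRL (median -1.42), 10 and 0 in COX2i against CTRL (0.42), 2 and 4 in COX2i + 5-AZA against CTRL (-0.16) and, relative to COX2i, 0 and 16 (-0.62). Foxm1, the transcription factor that activates G2/M genes, stood at 32.4 CPM in CTRL and 2.91 CPM in IRF3/7, a log2 ratio of -3.47 (-3.90 to -3.08). The 2 that were higher in IRF3/7 were the D-type cyclins Ccnd2, at 1.07, and Ccnd3, at 1.01, which act in G1. Ccnd2 stood at 92.8, 195, 126 and 172 CPM.

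The 11 inhibitors of cyclin-dependent kinases and related growth-restraining genes were mixed in direction. The counts of higher and lower genes were 5 and 4 in IRF3/7 against CTRL (median 0.47), 3 and 0 in COX2i against CTRL (0.30), 3 and 2 in COX2i + 5-AZA against CTRL (-0.18) and, relative to COX2i, 1 and 4 (-0.37). Cdkn2b (1.85) and Cdkn2a (1.61) were among those higher in COX2i than in CTRL, at 4.22 and 5.04 CPM in COX2i. Cdkn1a (p21), which holds cells in G1 and G2, stood at 277, 757, 386 and 609 CPM, so all 3 other libraries were above CTRL. Btg2, an antiproliferative gene, was at 2.02 in IRF3/7. Cdkn2c (p18), another inhibitor, had the library order of the module at 82.9, 11.4, 122 and 46.7 CPM. Of 26 genes of condensin, cohesin and the APC/C, 18 were lower in IRF3/7 against CTRL (median -0.91), 6 higher in COX2i against CTRL (0.32) and 12 lower in COX2i + 5-AZA against COX2i (-0.51), with 0 in the other direction in these 3 comparisons. Of 10 growth factor and receptor genes of macrophages, 5 were lower in IRF3/7 (median -0.71, where 48.4% of all genes were lower), among them Igf1 at 26.3, 0.616, 9.99 and 6.88 CPM, and 2 were lower and 0 higher in COX2i against CTRL (-0.21).

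The members kept together across classes. Over 40 groups of class and library with at least 50 cells, the Pearson correlation of a member's log2(CPM + 1) with that of the sum of the other members was 0.980 for Top2a at the top, and 0.874 for Bub1b, 0.822 for Bub3, 0.680 for Cenpa and 0.558 for Cks2 at the bottom. The groups share libraries and depth, so these correlations are a description. Among the 10 genes outside the module whose log2(CPM + 1) correlated best with the summed level of the module were Ncapg (0.971), Ncaph (0.967), Rrm2 (0.965), Spc25 (0.964), Mcm7 (0.964), Cdca2 (0.963), Esco2 (0.962), Ckap2 (0.960) and Hells (0.959).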

How the data were processed

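CD45+ cells of 4 libraries, 1 per group, were fixed for 22 h, and their RNA was read with the probe-based Chromium Flex assay. By the study's methods, the authors ran Cell Ranger multi 7.1.0 with a mouse probe set on mm10 (GRCm38) and filtered cells and genes. They integrated the cells with others by Seurat and Harmony and named 17 classes. The authors deposited UMI counts without normalisation, and in all 34447 cells their sum equalled the total in the deposited cell annotation. The authors regressed out the difference of 2 cell cycle scores and clustered on variable genes, which are taken to include members. Differences between classes are therefore descriptions only.

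The members and lists were chosen with earlier results of these data known. All 42 members could be named, 16 were to be given in every library (of which Ccnb1 is not analysed here), and for each comparison and list the most extreme members with at least 200 UMIs were named. Counts were summed per class and library, divided by the total UMIs of the same cells and given as CPM. A ratio needed 20 or more UMIs over its libraries, and 1.5-fold or more counted as higher or lower. Comparisons within a class needed at least 50 cells in both libraries, and the 20 TAM_cycling cells of IRF3/7 are given without one. Intervals are exact 95% Poisson, Clopper-Pearson or conditional intervals and cover counting error only. Cells were thinned once to 2000 UMIs with a fixed seed. The scripts were tested on simulated data. Total UMIs per library ranged from 26356819 to 78722763. Alternatives changed the scaling, cell filters, weighting, class mix, thinning depth and limits. Python 3.11.15, numpy 2.4.6, scipy 1.17.1, pandas 2.3.3 and matplotlib 3.10.9 were used. Promoter sequences were those of RefSeq for GRCm38.p6. No doublet caller was named in the sources used here, and none was run. One of the genes most similar to the module and one allele of the tumour line are not reported here.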

Additional observations from a re-analysis of the deposited data

Results flagged for a closer look

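In non-immune cells the summed level of the members had a log2 ratio of -0.21 for COX2i against CTRL, whereas in monocytes and macrophages it was 0.87. The opposite direction under the same contrast drew attention to it. In the same comparison of non-immune cells 4 of 6 non-immune markers were higher (median 0.74), 3 of 4 monocyte markers were higher (0.95) and 4 of 4 neutrophil markers past the minimum were lower (-4.79), and their part was not tested. There was 1 library per group, so the difference between the cell types was not tested.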

How the results depend on the processing

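No paired analysis was possible because each group was 1 library, and for the same reason no fit without a library was run. Of the values recomputed under alternatives, 93 moved beyond their counting interval or by over 1.5 times, 44 did not, and 0 changed direction. Log2 ratios of the summed level follow in the order IRF3/7 against CTRL, COX2i against CTRL, COX2i + 5-AZA against COX2i and COX2i + 5-AZA against CTRL.

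For monocytes and macrophages (-2.45, 0.87, -1.19 and -0.31) they were -1.91, 0.86, -0.996 and -0.15 with median-of-ratios scaling, -1.91, 0.83, -1.14 and within the interval in cells with over 2000 genes, -2.63, 0.91, -1.40 and -0.48 without the top 5% of cells by UMIs, -2.27, 0.95, -1.42 and -0.47 with cells weighted equally, -3.12, 0.90, -1.22 and -0.35 as the median over members, and -0.62, 0.14, -0.27 and -0.17 with the class mix of the second library in both. The IRF3/7 value with that class mix rests on the 20 TAM_cycling cells, which gave 99.7% of its weighted sum, and it covered classes with 30.1% of the UMIs in CTRL (1.77% without TAM_cycling), so nothing is drawn from it. All of these class-mix values hold the share of TAM_cycling equal. That share is taken to follow these genes, so part of the difference is removed by construction. For 2 alternatives chosen after seeing the data they were -3.03, 0.91, -1.25 and -0.34 without Bub3, Cks2, Smc4 and Cenpa, and -2.31, 0.90, -1.16 and -0.26 with droplet barcodes of 1 library only. Without TAM_cycling (-0.60, 0.36, -0.80 and -0.44) the values for IRF3/7 were -0.12, -0.065, -0.83, -0.78, -1.03, -1.32, -0.98 and -0.52 under those 8 alternatives in turn. COX2i against CTRL moved to 0.46 (median), 0.41 (class mix) and 0.43 (without the 4 genes). In the order of scaling, top cells, equal weights, median, class mix, 4 genes and droplets, COX2i + 5-AZA was at -0.61, -0.75, -0.73, -1.15, -0.63, -1.07 and -0.88 against COX2i and at -0.25, -0.39, -0.37, -0.68, -0.20, -0.64 and -0.51 against CTRL. In TAM_cycling, COX2i against CTRL was 0.053 without top cells, 0.051 with equal weights, 0.034 as the median and 0.11 by droplets. COX2i + 5-AZA against COX2i was -0.16 by scaling, -0.30 without top cells, -0.23 with equal weights and -0.22 by droplets, and against CTRL it was -0.083, -0.25, -0.18 and -0.12, with -0.20 as the median.

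At a fold of 2, 0 members were higher in IRF3/7 and 7 in COX2i against CTRL, and 0 were lower in COX2i + 5-AZA against CTRL, as with median-of-ratios scaling (0). Shares of all genes under these settings are not given here, so the counts describe the members only. Shares of monocytes and macrophages with at least 5 members in CTRL, IRF3/7, COX2i and COX2i + 5-AZA were 10.5%, 0.536%, 23.8% and 7.60% thinned to 1000 UMIs, 22.4%, 3.29%, 45.4% and 17.5% thinned to 4000 UMIs, and 30.5%, 1.65%, 54.4% and 24.1% not thinned. They were 21.6%, 2.46%, 41.9% and 16.4% for at least 3 members and 9.66%, 0.591%, 22.0% and 6.81% for at least 10. The cause of these moves was not tested, other than that the alternatives use other cells, genes or limits by construction. The IRF3/7 library limits depth, and classes under 50 cells in a library allow no comparison.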

Other observations

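Mast cells held the module at 4639 CPM in CTRL (38 cells) and 4057 CPM in COX2i + 5-AZA (23 cells). Shares of thinned mast cells with at least 5 members were 27.0% and 27.3% in these libraries. Too few mast cells were present in IRF3/7 (3) and COX2i (13) for a comparison.

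Within TAM_cycling, UMIs of the members assigned to mitosis were 0.691, 0.654, 0.663 and 0.724 per UMI of the members assigned to G2, in CTRL, IRF3/7, COX2i and COX2i + 5-AZA. The 20 cells of IRF3/7 were the fewest behind any of these values.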
